A study of Homo sapiens with 12 samples.

Results

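The response to 1-AKP, the compound that the series names as an inhibitor of glycogen synthase kinase 3 (GSK3), was followed by bulk RNA sequencing in EndoC-βH1 cells whose long noncoding RNA TUNAR had been silenced. EndoC-βH1 is an established human beta-cell line that makes insulin. Members were chosen by title and siRNA label, which gave 6 of the 12 libraries: 3 with TUNAR siRNAs and 1-AKP at 5 µM, and 3 with TUNAR siRNAs and DMSO diluted 1:1000. The other 6 libraries received a negative control siRNA, 3 followed by 1-AKP at the same dose and 3 by DMSO. They were part of the fit behind the adjusted p-values, and their own values are given only where they are named. All cultures had been transfected with a lipid reagent, were treated 2 days later and were held in the treatment for 24 hours. Several predesigned siRNAs were used against TUNAR. Replicates 1 and 2 of each group are labelled passage 74 and replicate 3 passage 75. The p-values therefore measure the spread between cultures of 1 cell line.

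GSK3 is a kinase that is active in resting cells. It marks beta-catenin for destruction within a complex built on axin, and Wnt signals lift that mark so that beta-catenin can switch on genes such as AXIN2 and NKD1 together with TCF factors. FRAT proteins bind GSK3 and can draw it away from axin, and GSK3 also restrains glycogen synthase and lies downstream of insulin through the kinase AKT. AKT also keeps FOXO transcription factors out of the nucleus, where they otherwise turn on genes of atrophy, autophagy and fasting metabolism, and FOXO1 is a known partner in the control of beta-cell identity.

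The target of the siRNAs was examined first. TUNAR stood at 6.95, 10.5 and 13.6 CPM with 1-AKP, against 3.83, 7.20 and 8.09 CPM with DMSO, both with TUNAR siRNAs. The means came to 34.5% (1-AKP) and 36.8% (DMSO) of those with negative siRNA, without overlap in either treatment (exact two-sided permutation p = 0.1, the smallest that 3 against 3 allows). Between 1-AKP and DMSO with TUNAR siRNAs the libraries overlapped, and the difference did not pass the test (log2 fold change 0.70, SE 0.274, adjusted p = 0.164, exact permutation p = 0.3). Without replicate 1 of all groups it did pass (0.65, adjusted p = 0.00125). Strand marking is not stated, so reads of TUNAR and of any transcript on the opposite strand cannot be told apart, and the same holds for other overlapping genes.

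Library totals ran from 15653786 to 15986834 expected counts, and 15990 genes had enough of them to be tested. The cells carried beta-cell RNA in both treatments: the 12 beta-cell markers summed to between 12000 and 16200 CPM with 1-AKP and between 12700 and 16200 CPM with DMSO, where CPM are counts scaled to a common library total after TMM normalisation. INS made up most of these sums. Among markers of other cell types, CTRB1 and AMY2A of acinar cells were at 0 in all 6 libraries. In the same libraries CPA1 of acinar cells ran from 20.5 to 31.7 CPM and KRT19 of duct from 54.4 to 68 CPM. None of the 23 tested markers of alpha and delta cells, duct and acinus, stroma, endothelium and blood passed the test. Without replicate 1 of all groups 3 were called: DPP4 of alpha cells (adjusted p = 0.00234) and FN1 of stroma (adjusted p = 0.00712) were higher, and KRT7 of duct (adjusted p = 0.0391) was lower. The marker sums ran from 1280 to 1610 CPM with 1-AKP and from 1350 to 1670 CPM with DMSO for alpha and delta cells, and lay within 128 to 139 CPM over all 6 libraries for duct and acinus. They ran from 52.1 to 59.7 CPM with 1-AKP and from 44.8 to 60 CPM with DMSO for endothelium and blood. TTR made up most of the alpha and delta sum, at 1070 to 1430 CPM over the 6 libraries, while GCG was at 0 to 0.444 CPM. The summed stroma markers ran from 48.1 to 144 CPM with 1-AKP and from 34.6 to 49.6 CPM with DMSO. Most of that sum was FN1, fibronectin, at 41.9, 123 and 141 CPM with 1-AKP, against 28.2, 42.5 and 45.1 CPM with DMSO (adjusted p = 0.19), while DCN and COL1A2 were at or near 0. The part of the stroma markers in the results below was not tested. Replicate 1 stood apart in all 4 groups: counts of replicate 1 differed from those of its group by a chi-square of 7.13 to 11.3 per degree of freedom, against 2.31 to 2.75 between replicates 2 and 3. SST, the delta-cell hormone, was at 28.1, 3.80 and 5.58 CPM with 1-AKP, against 33.5, 3.82 and 6.52 CPM with DMSO, so it was high in replicate 1 of both groups.

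With TUNAR silenced, 1-AKP changed 1201 genes by edgeR's quasi-likelihood test at a Benjamini-Hochberg adjusted p below 0.05, which is 7.51% of the genes tested. Of these 595 rose (3.72%) and 606 fell (3.79%), the shares against which each count of a gene list below is set. With library size as the only scaling 495 rose and 690 fell, so that 41.8% of the calls were upward, against 49.5% with TMM. The changes were mostly small: the median size was 0.30 on the log2 scale, with quartiles at 0.23 and 0.45, and 20 genes rose and 29 fell by more than 2-fold. The median was 0.26 among risen genes and -0.37 among fallen genes, against -0.00074 over all genes. The groups did not overlap in 1200 of the 1201 called genes, while they did not overlap in 24.1% of all genes tested. Fallen genes had longer deposited lengths, at a median of 4570 bases, than risen genes at 2120 bases, with 2890 bases over all genes, and the part of gene length in the calls was not tested. In these bulk samples less RNA per cell and fewer cells of a kind cannot be told apart.

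The number of calls depended on the libraries. It was 446 in a fit of the 6 libraries with TUNAR siRNAs alone. Without replicate 1 of all groups it was 2769, without replicate 2 it was 24 and without replicate 3 it was 67, in fits with 2 libraries a group. The last is also the value within passage 74, and passage 75, with 1 library a group, gives no test. Without 1 library alone it was 643 and 562 when 1-AKP replicate 2 or 3 was left out, and 786, 511 and 662 when DMSO replicate 1, 2 or 3 was left out. Of the 123 called genes that the naming rule gave, 2 lost their call without replicate 1 (WNT4 and KCNK16), 116 without replicate 2 and 102 without replicate 3. None of the 1201 genes changed sign in any of these fits. The same dependence holds for the gene groups below: of the 36 lists with a called member, 5 still had one without replicate 2, with at most 1 member each, and 13 without replicate 3, with at most 3 members each.

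**Figure D1:**
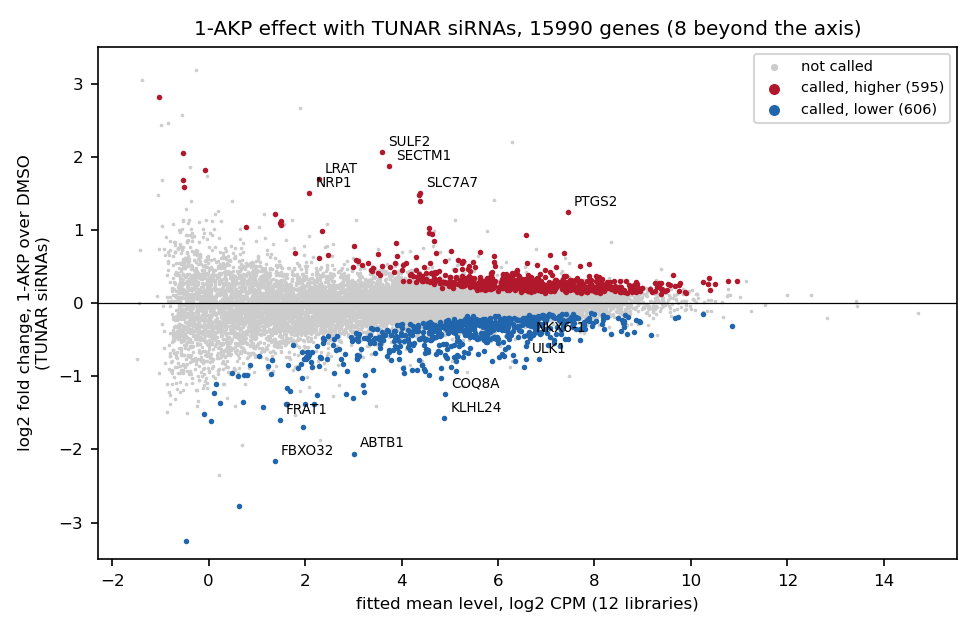
Log2 fold change of 1-AKP over DMSO with TUNAR siRNAs (vertical axis) against the fitted mean level in log2 CPM (horizontal axis), 1 point a gene. The 595 risen genes (red) and 606 fallen genes (blue) lie over a wide range of levels, and most lie within 1 unit of 0; SULF2, SECTM1 and PTGS2 stand above and FBXO32, ABTB1 and COQ8A below.

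FBXO32 had the largest fall of the genes that met the level set for naming. FBXO32, the muscle atrophy ubiquitin ligase subunit atrogin-1 and a classic FOXO target, was at 0.708, 1.14 and 0.761 CPM with 1-AKP, against 3.77, 3.38 and 4.64 CPM with DMSO. Its 1-AKP libraries all lay below its DMSO libraries (log2 fold change -2.16, SE 0.238, adjusted p = 0.00026). FOXO4, itself a FOXO factor, was at 2.25, 2.03 and 2.47 CPM with 1-AKP, against 6.41, 5.89 and 5.39 CPM with DMSO. The libraries of both groups were tight and apart (log2 fold change -1.39, SE 0.145, adjusted p = 0.000213). FOXO3, a second member of the family, was at 50.4, 50.9 and 53.8 CPM with 1-AKP, against 69.9, 76.1 and 73.0 CPM with DMSO, again without overlap (log2 fold change -0.50, SE 0.0588, adjusted p = 0.000432). FOXO1, the member best known in beta cells, had a log2 fold change of -0.19 that did not pass the test (adjusted p = 0.157); without replicate 1 it was called at -0.17 (adjusted p = 0.0122).

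Of 22 tested FOXO factors and targets, 7 fell (31.8%, against 3.79% of all genes) and 0 rose, with a median log2 fold change of -0.25. INSR, the insulin receptor, was at 63.9, 62.0 and 61.2 CPM with 1-AKP, against 85.7, 86.1 and 84.9 CPM with DMSO. It was lower in all 3 1-AKP libraries (log2 fold change -0.46, SE 0.0475, adjusted p = 0.000211). The others were IRS2, the insulin receptor substrate, at -0.39 (adjusted p = 0.0104), SESN1, a stress-induced restraint on mTOR complex 1, at -0.27 (adjusted p = 0.016), and PDK4, which shuts pyruvate dehydrogenase in fasting, at -0.73 (adjusted p = 0.0205). CCNG2, a cyclin of quiescent cells, averaged 28.4 ± 10.7 CPM with 1-AKP and 54.6 ± 15.3 CPM with DMSO (SD, n = 3 each) and its groups were apart, but it was not called (adjusted p = 0.145) unless replicate 1 was left out (-1.04, adjusted p = 3.99e-09), and TXNIP, the thioredoxin-binding protein of beta cells, overlapped between treatments (adjusted p = 0.724). The count was 9 without replicate 1, 1 without replicate 2 and 3 without replicate 3, and between 5 and 7 without any single library with TUNAR siRNAs.

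Of 31 tested genes of insulin and mTOR signalling 7 fell (22.6%, against 3.79% of all genes) and 0 rose, INSR and IRS2 of the list above among them. DEPTOR, an inhibitory subunit of mTOR complexes, was at 3.28, 1.33 and 0.761 CPM with 1-AKP, against 7.35, 5.32 and 4.70 CPM with DMSO. The highest 1-AKP library lay below the lowest DMSO library, with a wide spread (log2 fold change -1.69, SE 0.460, adjusted p = 0.0488). DEPTOR lost its call in 15 of the alternative fits, with an adjusted p of up to 0.421. Among them were the 6 libraries alone and the fits without any 1 DMSO library of either siRNA. With negative siRNA it was not called and its groups overlapped (log2 fold change -1.08, adjusted p = 0.192). RICTOR, the defining subunit of mTOR complex 2, was at 42.0, 40.2 and 38.6 CPM with 1-AKP, against 55.6, 55.6 and 55.0 CPM with DMSO (log2 fold change -0.46, SE 0.0527, adjusted p = 0.000353). IGF1R, the IGF-1 receptor, fell by 0.42 on the log2 scale (adjusted p = 0.00205). The list's median was -0.047, against -0.00074 over all genes. Without replicate 1 it held 9 fallen and 2 risen members, without replicate 2 it held 0 calls and without replicate 3 it held 1.

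ULK1, the kinase that starts autophagosome formation, was at 68.4, 77.6 and 74.1 CPM with 1-AKP, against 122, 129.5 and 124 CPM with DMSO. All 1-AKP libraries lay far below all DMSO libraries (log2 fold change -0.77, SE 0.0633, adjusted p = 4.69e-05). ATG13, its partner in the initiation complex, was at 50.7, 53.5 and 54.6 CPM with 1-AKP, against 87.0, 92.1 and 83.1 CPM with DMSO, with the same separation (log2 fold change -0.72, SE 0.0537, adjusted p = 2.22e-05). BNIP3L, a mitophagy receptor, averaged 62.0 ± 7.28 CPM with 1-AKP and 108 ± 6.16 CPM with DMSO (adjusted p = 0.00021), and WDR45, a lipid-binding autophagy protein, averaged 32.6 ± 2.44 CPM with 1-AKP and 52.5 ± 0.741 CPM with DMSO (adjusted p = 0.000113). ATG13, BNIP3L and WDR45 were picked after their values were seen. In the list of 37 tested lysosome and autophagy genes, which does not hold these 3, 5 rose (13.5%, against 3.72% of all genes) and ULK1 fell, with a median of 0.12. The risen members were FLCN, folliculin, a regulator of nutrient sensing at the lysosome, at 0.27 (adjusted p = 0.00474), the proton pump subunits ATP6V0A1 at 0.23 and ATP6V0D1 at 0.23 (adjusted p = 0.00496 and 0.00573), the membrane protein LAMP1 at 0.26 (adjusted p = 0.00892) and the sialidase NEU1 at 0.68 (adjusted p = 0.0318). The counts were 7 up and 3 down without replicate 1, and without replicate 2 or replicate 3 the sole call was 1 fallen member.

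Both FRAT genes fell. FRAT1 was at 1.35, 1.58 and 1.02 CPM with 1-AKP, against 4.21, 4.32 and 3.51 CPM with DMSO. FRAT2 was at 5.53, 6.02 and 5.58 CPM with 1-AKP, against 11.9, 11.8 and 13.5 CPM with DMSO. In both genes every 1-AKP library lay below every DMSO library, for FRAT1 with log2 fold change -1.60, SE 0.200, adjusted p = 0.000636 and for FRAT2 with log2 fold change -1.12, SE 0.119, adjusted p = 0.000213. The genes are close paralogs, so reads that match both could have been split between them by the counting. The other called member of the 22 tested genes of the destruction complex and its regulators was CSNK1E, casein kinase 1 epsilon, at -0.25 (adjusted p = 0.0264). In that list 3 fell (13.6%, against 3.79% of all genes) and 0 rose. The kinases themselves did not pass the test: GSK3A averaged 89.3 ± 3.32 CPM with 1-AKP and 84.6 ± 3.76 CPM with DMSO (adjusted p = 0.417) and GSK3B 178 ± 10.9 CPM with 1-AKP and 184 ± 12.3 CPM with DMSO (adjusted p = 0.759). Without replicate 1 the list held 1 risen and 6 fallen members, and without replicate 2 it held 1 fallen.

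Promoter sequence was read for the genes tested, as the 250 bases before the RefSeq gene start on GRCh38.p14, which the table held for 12444 of them. The letters GTAAACA, a core that FOXO factors bind, were searched on both strands (TGTTTAC on the other). They occurred in 27 of 481 promoters of fallen genes (5.61%), in 4 of 497 of risen genes (0.805%) and in 253 of all 12444 (2.03%). In 12 of the 27 fallen genes the match nearest the start lay within 60 bases of it, against 55 of the 253. The promoters of 4 of the fallen genes are printed to show where the letters lie, with the match in capitals. FRAT1 (chr10:97319021-97319270, plus strand) and FRAT2 (chr10:97334730-97334979, minus strand) share a run of 40 bases that holds it. JMY (chr5:79235881-79236130, plus strand), an actin nucleator and p53 cofactor, and MAML3 (chr4:140154185-140154434, minus strand), a Notch coactivator, were picked after their values were seen. In these 4 each match begins between 28 and 34 bases before the start. The match of HBP1, another fallen gene (log2 fold change -0.88), begins 173 bases before it. The paralogs FRAT1 and FRAT2, and the near-identical copies CFC1 and CFC1B, were counted separately among the 27.
FRAT1: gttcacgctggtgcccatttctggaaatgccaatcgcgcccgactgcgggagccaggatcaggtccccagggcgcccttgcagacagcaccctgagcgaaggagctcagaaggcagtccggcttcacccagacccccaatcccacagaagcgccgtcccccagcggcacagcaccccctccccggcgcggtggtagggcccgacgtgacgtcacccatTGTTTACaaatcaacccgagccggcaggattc
FRAT2: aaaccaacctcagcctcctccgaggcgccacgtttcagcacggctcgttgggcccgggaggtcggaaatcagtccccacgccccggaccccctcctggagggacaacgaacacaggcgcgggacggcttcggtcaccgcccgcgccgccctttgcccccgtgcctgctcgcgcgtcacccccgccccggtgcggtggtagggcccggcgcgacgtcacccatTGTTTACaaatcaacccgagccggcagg
JMY: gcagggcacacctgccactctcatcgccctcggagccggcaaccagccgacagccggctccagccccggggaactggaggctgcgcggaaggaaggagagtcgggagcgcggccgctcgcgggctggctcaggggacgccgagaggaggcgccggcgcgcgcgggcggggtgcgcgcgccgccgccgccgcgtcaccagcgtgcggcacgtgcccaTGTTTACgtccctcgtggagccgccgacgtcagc
MAML3: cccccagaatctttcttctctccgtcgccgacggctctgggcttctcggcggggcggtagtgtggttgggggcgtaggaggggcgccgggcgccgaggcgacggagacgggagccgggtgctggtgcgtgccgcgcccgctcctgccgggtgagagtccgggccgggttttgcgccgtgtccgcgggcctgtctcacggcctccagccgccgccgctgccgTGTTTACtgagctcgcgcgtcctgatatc
JMY was at 16.9, 19.5 and 18.8 CPM with 1-AKP, against 36.9, 38.2 and 37.6 CPM with DMSO (log2 fold change -1.03, SE 0.0993, adjusted p = 0.000127), and MAML3 at 18.5, 13.2 and 11.4 CPM with 1-AKP, against 28.8, 28.7 and 23.8 CPM with DMSO (log2 fold change -0.92, SE 0.147, adjusted p = 0.00323), so the groups were apart in both. Of the 22 tested FOXO factors and targets, 19 had a promoter in the table and the others were not searched. Among the 19, TXNIP alone held these letters, and the fallen members among the 19 held none in this window. A match is a description of the letters and no measure of binding.

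The letters GTCACGTG, an E-box with the flank that TFEB and related factors bind in promoters of lysosomal genes, showed the other direction. They occurred in 40 of 497 promoters of risen genes (8.05%), in 17 of 481 of fallen genes (3.53%) and in 471 of 12444 over all (3.78%), on either strand (CACGTGAC on the other; the 2 can overlap, and a promoter counts once). The promoters of AMDHD2 (chr16:2520121-2520370, plus strand), an enzyme of amino sugar breakdown, and of LAMP1 (chr13:113296989-113297238, plus strand) hold 3 and 5 matches, in capitals, and are printed for that.
AMDHD2: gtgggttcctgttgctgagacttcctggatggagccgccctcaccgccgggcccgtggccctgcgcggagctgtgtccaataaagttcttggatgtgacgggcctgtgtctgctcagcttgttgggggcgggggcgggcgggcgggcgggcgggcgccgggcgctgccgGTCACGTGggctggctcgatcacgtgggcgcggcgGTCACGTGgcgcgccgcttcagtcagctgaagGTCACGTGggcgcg
LAMP1: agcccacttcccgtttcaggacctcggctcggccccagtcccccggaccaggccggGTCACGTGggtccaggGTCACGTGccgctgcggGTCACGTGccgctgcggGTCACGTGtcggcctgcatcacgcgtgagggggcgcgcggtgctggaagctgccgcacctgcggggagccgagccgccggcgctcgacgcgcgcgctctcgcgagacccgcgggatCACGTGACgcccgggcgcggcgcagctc
AMDHD2, picked after its values were seen, was at 30.5, 32.4 and 32.5 CPM with 1-AKP, against 18.9, 21.4 and 19.1 CPM with DMSO, with the groups apart (log2 fold change 0.69, SE 0.0877, adjusted p = 0.00074). LAMP1 was at 521, 537 and 496 CPM with 1-AKP, against 456, 431 and 414 CPM with DMSO, also without overlap. Of the 24 lysosome and autophagy genes with a promoter, 6 held these letters, among them the risen ATP6V0D1 and LAMP1. The letters CTTTGAT, a core of TCF sites, searched on both strands, were in 6 promoters of fallen genes (1.25%), 3 of risen genes (0.604%) and 170 over all (1.37%).

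**Figure D2:**
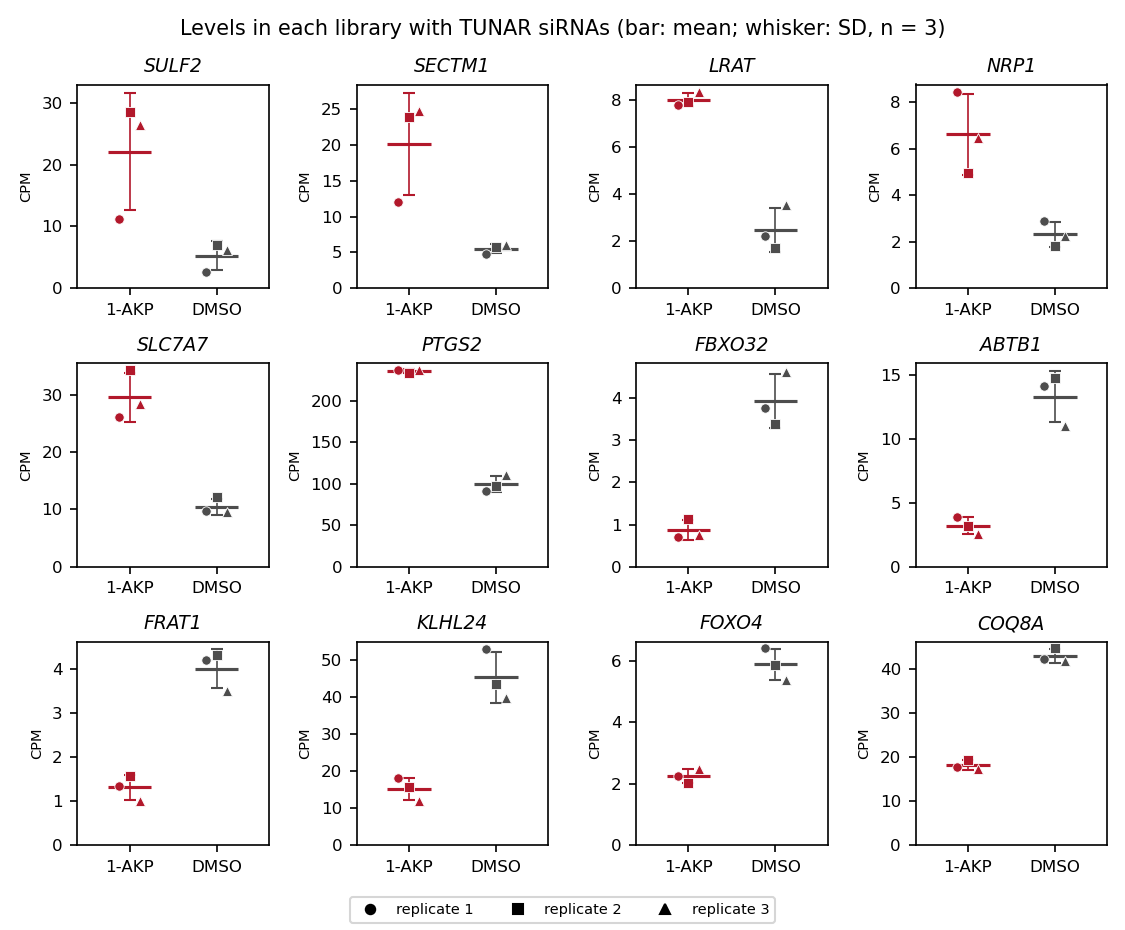
CPM (vertical axis, from 0) of 12 genes in each library with TUNAR siRNAs, 1-AKP in red on the left and DMSO in grey on the right; symbols mark the replicate, bars the mean and whiskers the SD of 3 libraries. The 12 genes were taken from called genes whose groups did not overlap, so the groups are apart in every panel. Replicate 1 (circle) is the lowest 1-AKP library of SULF2, SECTM1, LRAT, SLC7A7 and FBXO32 and the highest of NRP1, ABTB1, KLHL24 and PTGS2.

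None of the genes most used to read beta-catenin activity passed the test. AXIN2, which feeds back on the destruction complex and is its usual reporter, was at 8.69, 8.93 and 10.0 CPM with 1-AKP, against 8.74, 12.1 and 10.6 CPM with DMSO. The groups overlapped (log2 fold change -0.18, SE 0.132, adjusted p = 0.483). NKD1, another feedback antagonist, averaged 6.66 ± 1.15 CPM with 1-AKP and 6.63 ± 1.05 CPM with DMSO, and its log2 fold change was 0.0083 (SE 0.182). TCF7, RNF43, ZNRF3, NOTUM and SP5, further genes that Wnt induces in many tissues, had log2 fold changes of -0.11, -0.066, 0.0011, -0.039 and -0.10, none of them called. NOTUM and SP5 averaged 2.48 and 0.934 CPM with 1-AKP and had standard errors of 0.442 and 0.323. NOTUM was at 1.09, 3.10 and 3.24 CPM with 1-AKP, against 1.19, 3.69 and 2.76 CPM with DMSO, low in replicate 1 of both groups. CTNNB1, beta-catenin, was at 383, 343 and 330.0 CPM with 1-AKP, against 448, 402 and 382 CPM with DMSO, overlapping between 1 library of each group (log2 fold change -0.22, SE 0.0731, adjusted p = 0.0885). Without replicate 1 it was called at -0.22 (adjusted p = 0.00136). RNA of these genes does not report the protein level of beta-catenin. LEF1 and LGR5 were looked for too but were not among the 15990 genes tested, so no result is given for them.

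Among all 26 tested beta-catenin targets 2 rose (7.69%, against 3.72% of all genes) and 4 fell (15.4%, against 3.79%), with a median of -0.066. CXXC4, a Dishevelled-binding antagonist of the pathway, was at 30.4, 32.8 and 30.5 CPM with 1-AKP, against 46.3, 58.4 and 52.2 CPM with DMSO, and the groups were far apart (log2 fold change -0.74, SE 0.0859, adjusted p = 0.000362). CD44, the hyaluronan receptor, was at 48.4, 52.1 and 48.2 CPM with 1-AKP, against 60.3, 72.4 and 73.8 CPM with DMSO, likewise apart (log2 fold change -0.47, SE 0.0917, adjusted p = 0.00892). KREMEN1, a receptor for Dickkopf antagonists, fell by 0.31 (adjusted p = 0.029) and ISL1, an islet homeobox factor, by 0.15 (adjusted p = 0.0398). PPARD, a lipid-sensing nuclear receptor, was at 28.7, 33.6 and 31.3 CPM with 1-AKP, against 25.5, 25.2 and 26.2 CPM with DMSO, and rose (log2 fold change 0.28, SE 0.0671, adjusted p = 0.0235). VCAN, the matrix proteoglycan versican, rose at the edge of detection, at 1.09, 0.887 and 0.952 CPM with 1-AKP, against 0, 0.376 and 0.313 CPM with DMSO (adjusted p = 0.0393). Of 24 Wnt ligands and receptors, 4 fell (16.7%) and 0 rose: PTK7, a planar polarity coreceptor, at -0.29 (adjusted p = 0.00253), ROR1, a receptor for noncanonical Wnts, at -0.49 (adjusted p = 0.0245), the ligand WNT4 at -0.33 (adjusted p = 0.0356) and WLS, which carries Wnts to the surface, at -0.17 (adjusted p = 0.0375). Both lists held 0 calls without replicate 2 or without replicate 3, and without any 1 of the 3 DMSO libraries or of 1-AKP replicates 2 and 3 the targets held 2 or 3 calls and the ligands and receptors 1 or 2.

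**Figure D3:**
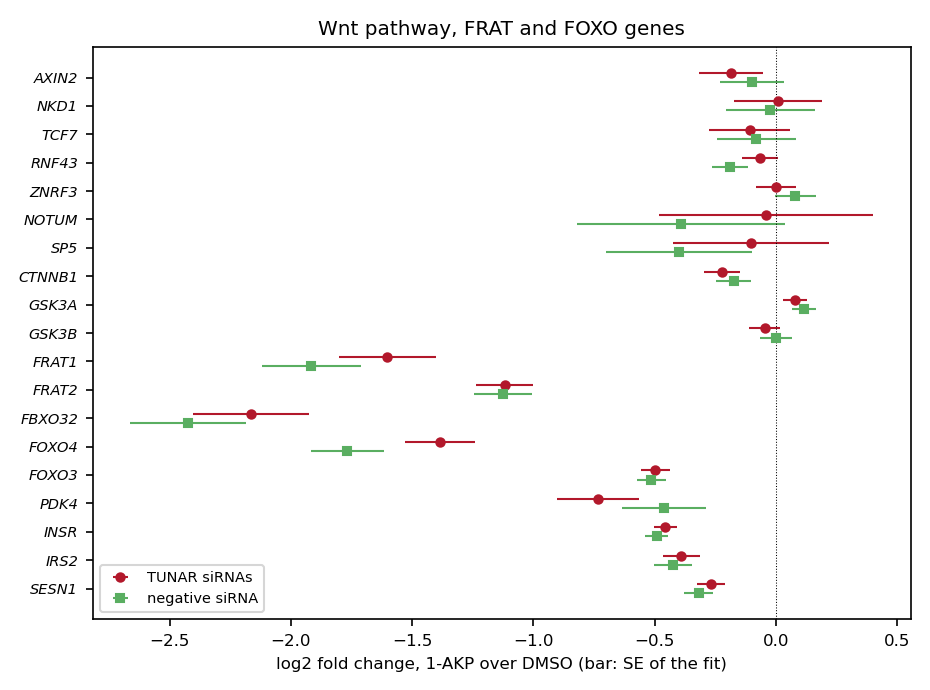
Log2 fold change of 1-AKP over DMSO (horizontal axis) for genes of the Wnt pathway, the FRAT genes and FOXO factors and targets, with TUNAR siRNAs (red circles) and negative siRNA (green squares); bars are 1 SE of the fit. AXIN2 to GSK3B lie near 0 with TUNAR siRNAs, while FRAT1, FRAT2, FBXO32 and FOXO4 lie at -1.60, -1.12, -2.16 and -1.39.

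Glycogen genes, the namesake of the kinase, showed 2 risen (9.09%, against 3.72% of all genes) and 0 fallen members of 22. PYGB, the brain form of glycogen phosphorylase, was at 87.6, 85.6 and 86.5 CPM with 1-AKP, against 72.8, 70.9 and 71.6 CPM with DMSO, a small difference with tight libraries (log2 fold change 0.27, SE 0.0533, adjusted p = 0.00991). GYG1, glycogenin, which primes glycogen chains, was at 28.2, 29.8 and 30.1 CPM with 1-AKP, against 19.5, 25.3 and 21.4 CPM with DMSO (log2 fold change 0.41, SE 0.0974, adjusted p = 0.0238). GYS1, the glycogen synthase that GSK3 phosphorylates, averaged 24.4 ± 1.11 CPM with 1-AKP and 24.6 ± 1.68 CPM with DMSO and did not pass the test (adjusted p = 0.958). The list's median was 0.0020 and turned to -0.014 with library size as the only scaling, where that of all genes was -0.017. Without replicate 2 or 3 the list held 0 calls, without replicate 1 it held 4, and it held 1 without 1-AKP replicate 2 or 3 or DMSO replicate 1 or 3.

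Of 26 tested transcription factors of beta-cell identity 9 fell (34.6%, against 3.79% of all genes), 0 rose and 17 did not pass the test, with a median of -0.215. NKX2-2, a homeobox factor needed for beta-cell fate, was at 59.3, 69.0 and 73.0 CPM with 1-AKP, against 107, 133 and 129.9 CPM with DMSO. Every 1-AKP library lay below every DMSO library by a wide margin (log2 fold change -0.87, SE 0.0953, adjusted p = 0.00026). NKX6-1, which maintains beta-cell identity and insulin secretion, was at 69.7, 81.1 and 83.9 CPM with 1-AKP, against 99.9, 117 and 110.3 CPM with DMSO, also apart (log2 fold change -0.48, SE 0.0737, adjusted p = 0.00254). PAX6, a regulator of islet hormone genes, was at 354, 369 and 350.4 CPM with 1-AKP, against 421, 448 and 427 CPM with DMSO (log2 fold change -0.27, SE 0.0428, adjusted p = 0.00291), and MLXIPL, the glucose-responsive factor ChREBP, at 92.9, 111 and 115 CPM with 1-AKP, against 131, 146 and 142 CPM with DMSO (log2 fold change -0.40, SE 0.0843, adjusted p = 0.014). In both the groups were apart. The other falls were those of MNX1 at -0.33, SOX4 at -0.49, RFX3 at -0.38, GLIS3 at -0.23 and ISL1 at -0.15. MAFA averaged 60.7 ± 20.5 CPM with 1-AKP and 82.0 ± 22.3 CPM with DMSO (adjusted p = 0.492) and PDX1 278 ± 19.5 CPM with 1-AKP and 303 ± 8.61 CPM with DMSO (adjusted p = 0.208), neither of them called; without replicate 1 MAFA was called at -0.38 (adjusted p = 0.00782) and PDX1 was not. The count was 17 without replicate 1, 0 without replicate 2 and 1 without replicate 3. It was 5 without 1-AKP replicate 3 and 3 and 4 without DMSO replicates 2 and 3.

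INS itself did not pass the test. INS, insulin, was at 9207, 11975 and 12851 CPM with 1-AKP, against 9454, 11632 and 12447 CPM with DMSO, with almost the same range in both treatments (log2 fold change 0.021, SE 0.148). IAPP, the amyloid peptide released with insulin, was at 60.9, 42.3 and 47.3 CPM with 1-AKP, against 104, 75.5 and 81.9 CPM with DMSO. Its groups were apart, but the fold of -0.80 missed the threshold (SE 0.218, adjusted p = 0.0529). Without replicate 1 it was called at -0.81 (adjusted p = 3.53e-08), and it was also called by DESeq2 (adjusted p = 0.00144). Of 42 genes of insulin processing, granules and secretion 4 fell (9.52%, against 3.79% of all genes) and 0 rose: GIPR, the receptor of the incretin GIP, was at 19.9, 17.5 and 16.6 CPM with 1-AKP, against 27.1, 29.8 and 26.4 CPM with DMSO (log2 fold change -0.62, SE 0.0893, adjusted p = 0.00161). GPR119, a lipid receptor that raises cAMP in beta cells, fell by 0.87 (adjusted p = 0.0169), ERO1B, the oxidase for disulfide bonds of proinsulin, by 0.31 (adjusted p = 0.00621), and CACNA1C, an L-type calcium channel subunit, by 0.17 (adjusted p = 0.0416). G6PC2, the islet glucose-6-phosphatase, was at 35.4, 144 and 192 CPM with 1-AKP, against 7.35, 27.7 and 45.3 CPM with DMSO. It was higher with 1-AKP within each replicate number, but replicate 1 lay far below the others in both treatments, the groups overlapped and no call was made (log2 fold change 2.20, SE 0.932, adjusted p = 0.213); without replicate 1 it was called at 2.20 (adjusted p = 0.0328). The list held 14 calls without replicate 1, 4 up and 10 down, and 0 without replicate 2 or 3. It held 2 without 1-AKP replicate 2 or 3 or DMSO replicate 2 or 3.

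Potassium channels, which set the resting voltage of beta cells, gave 6 fallen and 0 risen of 24 (25% fallen, against 3.79% of all genes). KCNK16, a background channel of islets, was at 128, 127 and 103 CPM with 1-AKP, against 183, 186 and 152 CPM with DMSO, and KCNK17, a related channel, at 88.9, 99.3 and 91.8 CPM with 1-AKP, against 124, 131 and 124 CPM with DMSO. Neither overlapped (log2 fold changes -0.54 and -0.44, adjusted p = 0.00632 and 0.00605). KCNH6 and KCNH8, voltage-gated channels, fell by 0.40 and 0.49. Among 17 genes of calcium handling, ITPR3, an IP3 receptor, rose by 0.29 (adjusted p = 0.00391), CANX, the chaperone calnexin, by 0.34 (adjusted p = 0.000353), and ATP2B4, a plasma membrane calcium pump, fell by 0.70 (adjusted p = 0.00474). Of that list 11.8% rose and 5.88% fell, against 3.72% and 3.79% of all genes. Neuronal genes, which beta cells share in part, gave 5 fallen and 0 risen of 24 (20.8% fallen). DCX, doublecortin, was at 148, 151 and 141 CPM with 1-AKP, against 183, 212 and 196 CPM with DMSO (log2 fold change -0.43, SE 0.0678, adjusted p = 0.00305), with the groups apart. The calcium genes held 0 calls without replicate 2 and 1 without replicate 3. The channels gave 6 fallen and 2 risen members without replicate 1, 0 without replicate 2, 1 without replicate 3, and 3 without 1-AKP replicate 3 or DMSO replicate 2 or 3. The neuronal genes gave 0 without replicate 2 or 3, and 2 or 3 without 1-AKP replicate 2 or 3 or any 1 DMSO library.

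**Figure D4:**
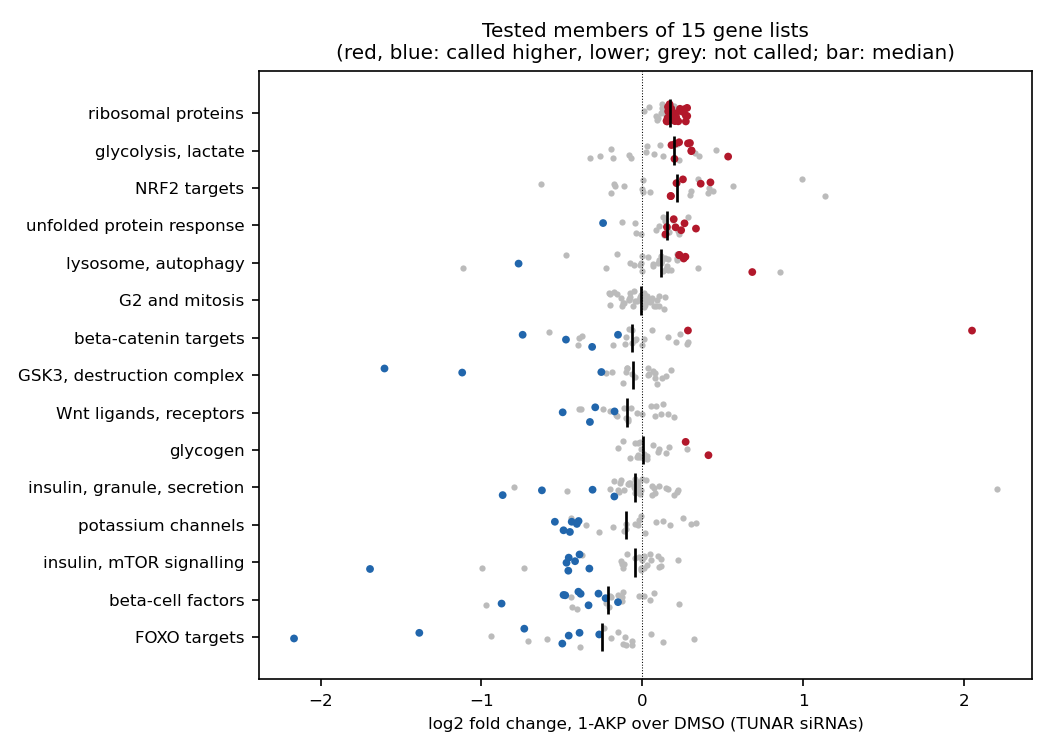
Log2 fold changes (horizontal axis) of the tested members of 15 gene lists, 1 point a gene, with called members in red (higher with 1-AKP) or blue (lower) and the list's median as a bar. Ribosomal proteins, glycolysis and NRF2 targets have medians of 0.174, 0.200 and 0.219, beta-cell factors and FOXO targets of -0.215 and -0.252, and G2 and mitosis genes have 0 called members.

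SULF2 and SECTM1 had the largest rises of genes that met the level set for naming. SULF2, which trims sulfate from heparan sulfate chains outside the cell, was at 11.2, 28.6 and 26.5 CPM with 1-AKP, against 2.58, 7.01 and 6.21 CPM with DMSO. The groups were apart although replicate 1 was low in both (log2 fold change 2.07, SE 0.508, adjusted p = 0.0369). SULF2 lost its call in 11 of the alternative fits, with an adjusted p of up to 0.325. Among them were the 6 libraries alone and the fits without replicate 2 or 3, without any 1 DMSO library and without 1-AKP replicate 2 or 3. HS6ST3, a transferase that adds the 6-O-sulfate that SULF2 removes, was at 147, 126 and 111 CPM with 1-AKP, against 73.6, 68.2 and 58.8 CPM with DMSO, also higher in all 1-AKP libraries (log2 fold change 0.93, SE 0.133, adjusted p = 0.00231). SECTM1, a transmembrane and secreted protein, was at 11.97, 23.9 and 24.7 CPM with 1-AKP, against 4.78, 5.76 and 5.95 CPM with DMSO, again without overlap (log2 fold change 1.88, SE 0.311, adjusted p = 0.00542). SECTM1 lost its call without replicate 2 and without replicate 3, with an adjusted p of up to 0.197. Of 27 heparan sulfate genes 2 rose (7.41%, against 3.72% of all genes) and GPC3, a glypican, fell by 0.25 (adjusted p = 0.0375). NRP1, a coreceptor for semaphorins and VEGF, was at 8.43, 4.94 and 6.47 CPM with 1-AKP, against 2.89, 1.82 and 2.26 CPM with DMSO, and rose (log2 fold change 1.51, SE 0.267, adjusted p = 0.00544). The plexins PLXNA4, at 5.02, 6.08 and 4.31 CPM with 1-AKP, against 16.5, 12.2 and 9.34 CPM with DMSO, and PLXND1, receptors for semaphorins, both fell (-1.30 and -0.43, adjusted p = 0.00787 and 0.00433). In the lists of heparan sulfate and of semaphorin genes 0 calls were left without replicate 2 and 1 without replicate 3, and 6 and 10 stood without replicate 1. The semaphorin genes held 5 calls without DMSO replicate 3, and the heparan sulfate genes 1 without 1-AKP replicate 2 or 3 or DMSO replicate 2 or 3.

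PTGS2 had the lowest p-value of the risen genes. PTGS2, the inducible cyclooxygenase COX-2 that starts prostaglandin synthesis, was at 237, 233 and 236 CPM with 1-AKP, against 91.3, 97.0 and 110.4 CPM with DMSO. The 1-AKP libraries agreed closely and lay far above the DMSO libraries (log2 fold change 1.24, SE 0.0876, adjusted p = 2.22e-05). PLA2G4A, the phospholipase that frees its substrate arachidonate, was at 18.0, 16.1 and 17.1 CPM with 1-AKP, against 8.17, 10.6 and 10.2 CPM with DMSO, also apart (log2 fold change 0.82, SE 0.118, adjusted p = 0.00172). PLA2G6, a calcium-independent phospholipase, fell by 0.75 (adjusted p = 0.00781), the third called member of 14 (21.4% called, against 7.51% of all genes). LRAT, which esterifies retinol for storage, was at 7.79, 7.92 and 8.31 CPM with 1-AKP, against 2.20, 1.69 and 3.51 CPM with DMSO, far apart at low levels (log2 fold change 1.70, SE 0.206, adjusted p = 0.000508). Of 17 retinoid genes the receptors RXRA and RXRB changed too, at 0.23 and -0.22 (adjusted p = 0.0189 and 0.0176), and with LRAT 17.6% of the list was called. PTGS2 was 1 of the 6 named genes, with SLC7A7, FLRT3, COQ8A, FRAT2 and ULK1, that kept their call in every fit run. Without replicate 2 or 3 the prostaglandin list held 1 call. The retinoid list held 7 calls without replicate 1, 0 without replicate 2, 1 without replicate 3 and 1 without 1-AKP replicate 2 or 3 or DMSO replicate 3.

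SLC7A7, the light chain of an exchanger of cationic and neutral amino acids, was at 26.1, 34.3 and 28.4 CPM with 1-AKP, against 9.74, 12.1 and 9.53 CPM with DMSO. Its groups were far apart (log2 fold change 1.500, SE 0.150, adjusted p = 0.000172). SLC3A2, the heavy chain that carries it to the surface, was at 313, 355 and 337 CPM with 1-AKP, against 258, 274 and 266 CPM with DMSO, and rose as well (log2 fold change 0.33, SE 0.0573, adjusted p = 0.0046). SLC38A2, a sodium-coupled amino acid transporter that starvation induces, fell by 0.32 (adjusted p = 0.00575), and ATF4, the factor of the amino acid response, rose by 0.18 (adjusted p = 0.02). In that list 5 of 28 rose (17.9%, against 3.72% of all genes) and 2 fell, and the counts were 15 calls without replicate 1, 1 without replicate 2 or 3, and 3 or 4 without 1-AKP replicate 2 or 3 or DMSO replicate 2. Other genes with large rises were LINC00673, a long noncoding RNA, at 1.48, TFAP2B, the transcription factor AP-2 beta, at 1.39, CIMAP3, a ciliary protein, at 1.22, IL1R1, the interleukin-1 receptor, at 1.12, CSGALNACT1, which starts chondroitin sulfate chains, at 1.09, SNTG1, a syntrophin, at 1.06, NKX6-3, a homeobox factor of the NKX6 family, at 1.03, PLD6, a mitochondrial phospholipase, at 0.98, and FLRT3, an adhesion protein, at 0.96. Their adjusted p ran from 0.000113 for FLRT3 to 0.0324 for IL1R1.

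HKDC1, a relative of the hexokinases that take up glucose into metabolism, was read in 1-AKP libraries and in no DMSO library. It had 40, 17 and 9 expected counts with 1-AKP and TUNAR siRNAs, against 0, 0 and 0 with DMSO, and 23, 12 and 11 with 1-AKP and negative siRNA, against 0, 0 and 0 with DMSO. The rise was at least 22.1-fold with TUNAR siRNAs and at least 15.3-fold with negative siRNA, against a floor of 3 counts over the 3 DMSO libraries (adjusted p = 0.0174 and 0.0314). Its level stayed low, at 1.41 ± 1.04 CPM with 1-AKP (SD, n = 3), under the level set for named genes, and it was picked after its values were seen.

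COQ8A, an atypical kinase of coenzyme Q synthesis, had the lowest adjusted p of all genes. It was at 17.7, 19.4 and 17.3 CPM with 1-AKP, against 42.4, 44.9 and 41.9 CPM with DMSO. Every 1-AKP library lay far below every DMSO library (log2 fold change -1.25, SE 0.0726, adjusted p = 6.41e-06). ABTB1, a BTB-domain protein, was at 3.86, 3.17 and 2.54 CPM with 1-AKP, against 14.1, 14.7 and 11.03 CPM with DMSO, and KLHL24, an adaptor of a ubiquitin ligase, at 18.0, 15.6 and 12.1 CPM with 1-AKP, against 52.9, 43.5 and 39.6 CPM with DMSO. Both were apart by far (-2.06 and -1.57, adjusted p = 5.04e-05 and 0.000678). NR4A2, an orphan nuclear receptor and immediate early gene, fell by 1.42 (adjusted p = 0.00492), CREBRF, a regulator of energy balance, by 1.25 (adjusted p = 0.000353), RGS9, a brake on G-protein signalling, by 1.38 (adjusted p = 0.00328) and BTN3A1, a butyrophilin that presents phosphoantigen to γδ T cells, by 1.38 (adjusted p = 0.00293), whose close paralogs may share its reads. MMRN1, BCAS3 and CCDC28A fell by 1.38, 1.25 and 1.22. By p-value the leading genes also included the chromatin remodeller CHD6 at -0.59, TFDP2, the dimer partner of E2F factors, at -0.69, WDR48, a cofactor of deubiquitinases, at -0.73, and NR1D2, the clock repressor REV-ERB beta, at -0.79, chosen after their values were seen.

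Of 40 ribosomal protein genes 24 rose (60%, against 3.72% of all genes) and 0 fell, all 40 lay above 0, and the median was 0.17. RPS6 was at 668, 645 and 666 CPM with 1-AKP, against 546, 544 and 550.4 CPM with DMSO, and RPSA at 710.2, 717 and 736 CPM with 1-AKP, against 606, 572 and 604 CPM with DMSO. The groups were apart in both, by a small step (0.27 and 0.28, adjusted p = 0.000678 and 0.00125). Many of these genes, and GAPDH below, have near-identical pseudogenes, among which the authors' counting could split reads. With other scalings the count was 22 or 23. It was 37 without replicate 1, 0 without replicate 2 or 3, 13 and 9 without 1-AKP replicate 2 or 3, and 15, 13 and 11 without DMSO replicate 1, 2 or 3.

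Of 25 genes of glycolysis and lactate handling 9 rose (36%, against 3.72% of all genes) and 0 fell, with a median of 0.20. LDHA, which makes lactate and is kept low in adult beta cells, was at 261, 238 and 265 CPM with 1-AKP, against 193, 161 and 174 CPM with DMSO, with the groups apart (log2 fold change 0.53, SE 0.0666, adjusted p = 0.000636). PGK1, GAPDH and LDHB rose by 0.23, 0.31 and 0.28 (adjusted p = 0.00277, 0.00936 and 0.00892), and ENO2, ALDOA, TPI1, PGAM1 and PFKM made up the rest. The count was 13 risen and 1 fallen without replicate 1, 0 without replicate 2 or 3, and 5 without 1-AKP replicate 2 or 3. Of 25 targets of NRF2, the regulator of antioxidant genes, 6 rose (24%, against 3.72% of all genes) and 0 fell, with a median of 0.22. GSR, glutathione reductase, was at 196, 167 and 169 CPM with 1-AKP, against 138, 140.3 and 136 CPM with DMSO (log2 fold change 0.36, SE 0.0616, adjusted p = 0.00433), and NFE2L2, NRF2 itself, at 77.5, 63.2 and 64.8 CPM with 1-AKP, against 47.3, 50.8 and 54.9 CPM with DMSO (log2 fold change 0.42, SE 0.0909, adjusted p = 0.0146), both apart. TALDO1, TKT, PGD and TXN were the others. NQO1, the most used marker of the response, was at 98.7, 48.7 and 58.6 CPM with 1-AKP, against 47.3, 28.6 and 27.8 CPM with DMSO, with replicate 1 high in both groups; the groups were apart, and it was not called (adjusted p = 0.105) unless replicate 1 was left out (0.93, adjusted p = 2.15e-08). The NRF2 list gave 14 risen and 2 fallen without replicate 1, 0 without replicate 2 or 3, and 2 or 3 without 1-AKP replicate 3 or DMSO replicate 1 or 2.

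In the unfolded protein response 7 of 23 genes rose (30.4%, against 3.72% of all genes) and 1 fell. DNAJB11, a chaperone of the endoplasmic reticulum, was at 112, 119 and 133 CPM with 1-AKP, against 90.3, 94.9 and 104 CPM with DMSO (log2 fold change 0.33, SE 0.0689, adjusted p = 0.0119), and HYOU1 and PDIA4, also chaperones, rose by 0.21 and 0.20. HERPUD1, a component of protein disposal at that membrane, fell by 0.24 (adjusted p = 0.0208). The count was 14 without replicate 1, 0 without replicate 2 or 3, 5 and 2 without 1-AKP replicates 2 and 3, and 0 and 2 without DMSO replicates 2 and 3. Of 38 genes of ribosome assembly 2 rose (5.26%, against 3.72% of all genes), NPM1, nucleophosmin, at 0.27 and WDR43 at 0.33, although 37 lay above 0 with a median of 0.20. In that list 22 rose without replicate 1, 5 without 1-AKP replicate 1, and 0 or 1 without any other library with TUNAR siRNAs or without replicate 2 or 3. Of 27 cholesterol synthesis genes 3 rose (11.1%), DHCR7, NSDHL and EBP. There 5 rose and 4 fell without replicate 1, 1 rose without 1-AKP replicate 3, and 0 were called without replicate 2 or 3 or without DMSO replicate 2 or 3. Of 33 oxidative phosphorylation genes 1 rose (3.03%), COX5A, and 12 did without replicate 1.

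Genes of G2, mitosis and S phase gave few calls. Of 38 genes of G2 and mitosis 0 were called, with a median of -0.0099. Of 37 S-phase genes 1 rose (2.7%), the nuclease FEN1 at 0.22 (adjusted p = 0.0412), while 28 lay above 0, with a median of 0.071. Among 23 G1 cyclins, kinases and inhibitors CCND3, cyclin D3, rose by 0.23 and its kinase CDK4 by 0.31, while CDKN2B, a CDK4 inhibitor, and RBL2, a pocket protein of resting cells, fell by 0.26 and 0.32 (adjusted p = 0.00914, 0.0367, 0.0383 and 0.0184). Of the 23, 8.7% rose and 8.7% fell, against 3.72% and 3.79% of all genes, so that 17.4% were called, against 7.51%. Without replicate 2 or 3 these lists held 0 calls, and without replicate 1 the G2 and mitosis list held 4 and the G1 list 7. FEN1's list held 0 calls without any 1 library with TUNAR siRNAs, and the G1 list 1 or 2 without any of them but 1-AKP replicate 1. In the other lists 0 to 3 members were called. The Notch genes NOTCH1 and its ligand DLL4 fell by 0.57 and 0.44 (2 of 16 called, 12.5%). The BMP-induced ID2 and ID4 fell by 0.31 and 0.46 (2 of 21, 9.52%), and the Polycomb members JARID2 and RNF2 by 0.52 and 0.31 (2 of 26, 7.69%). Of the YAP targets, CRIM1 fell by 0.51 (1 of 15, 6.67%). The shares of the BMP, Polycomb and YAP lists lay near the 7.51% of all genes. Of 32 immediate early genes 1 rose and 2 fell, of 27 interferon and MHC genes 1 rose and 2 fell, of 26 fatty acid genes 1 rose and 1 fell, and of 17 p53 targets SESN1 alone was called. The called shares of these 4 lists, 9.38%, 11.1%, 7.69% and 5.88%, lay near the 7.51% of all genes. Of 8 tested genes of the aryl hydrocarbon receptor list 1 rose and 1 fell (25% called, against 7.51% of all genes). In that list 7 genes lay above 0, with a median of 0.30. The risen gene was NFE2L2, given above, and AHR, the receptor itself, fell by 0.30 (adjusted p = 0.0479). Without replicate 2 or 3 the list held 0 calls. Of 13 tested genes near TUNAR 1 was called (7.69%): ATG2B, a lipid transfer protein of autophagosomes, fell by 0.41 (adjusted p = 0.00994). Of 10 hepatic and gut endoderm genes 0 were called.

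Whether the response differed with TUNAR silenced was tested as the difference between the 1-AKP effect with TUNAR siRNAs and that with negative siRNA. By edgeR's quasi-likelihood test 0 genes were called, with 170 at an unadjusted p under 0.05 (1.06% of the genes) and a smallest adjusted p of 1. DESeq2 and limma called 0 as well, DESeq2 with 64 genes and limma with 232 at an unadjusted p under 0.05. The 1.06% lies below the share of 0.05 that a calibrated test gives where no gene differs. With the replicate number as a block, edgeR gave 514 such genes and 0 calls (smallest adjusted p = 0.102). With the block and without replicate 1 it gave 4 calls, named in the last section. With TUNAR siRNAs 1201 genes were called and with negative siRNA 1168 (7.3%, with 3.54% up and 3.76% down), in libraries that the comparisons do not share. Both counts came from the same fit of all 12 libraries, so the estimate of each gene's spread is shared between them. The negative siRNA count was 2559, 29 and 51 without replicate 1, 2 or 3, 498 and 492 without its 1-AKP replicate 2 or 3, and 655, 554 and 606 without its DMSO replicate 1, 2 or 3. With library size as the only scaling 37.1% of its calls were upward, against 48.5% with TMM. The 869 genes called in both are 72.4% of the first set and 74.4% of the second, and 0 of them differed in direction. Over the 1201 genes the median log2 fold change of those that rose was 0.26 with TUNAR siRNAs and 0.23 with negative siRNA, and of those that fell -0.37 and -0.35. The values with TUNAR siRNAs chose these genes. A difference that misses the threshold does not show equal effects.

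Single genes differed in how closely the responses lay. PTGS2 changed by 1.24 with TUNAR siRNAs and by 1.21 with negative siRNA (difference 0.03, SE 0.122), COQ8A by -1.25 and -1.26 (difference 0.02, SE 0.103), and NKX2-2 by -0.87 and -0.80 (difference -0.08, SE 0.134). The gaps were wider for FOXO4, at -1.39 and -1.77 (difference 0.38, SE 0.213), and for LRAT, at 1.70 and 1.24 (difference 0.46, SE 0.296). CIMAP3 changed by 1.22 with TUNAR siRNAs (adjusted p = 0.00621) and by 0.53 with negative siRNA (adjusted p = 0.159). Its difference of 0.69 (SE 0.304) had an unadjusted p of 0.0419 and did not pass the adjustment. SNTG1 changed by 1.06 with TUNAR siRNAs (adjusted p = 0.00743) and by 0.42 with negative siRNA (adjusted p = 0.24). For SNTG1 the difference of 0.64 (SE 0.28) had an unadjusted p of 0.0414 by edgeR's quasi-likelihood test and did not pass the adjustment either.

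**Figure D5:**
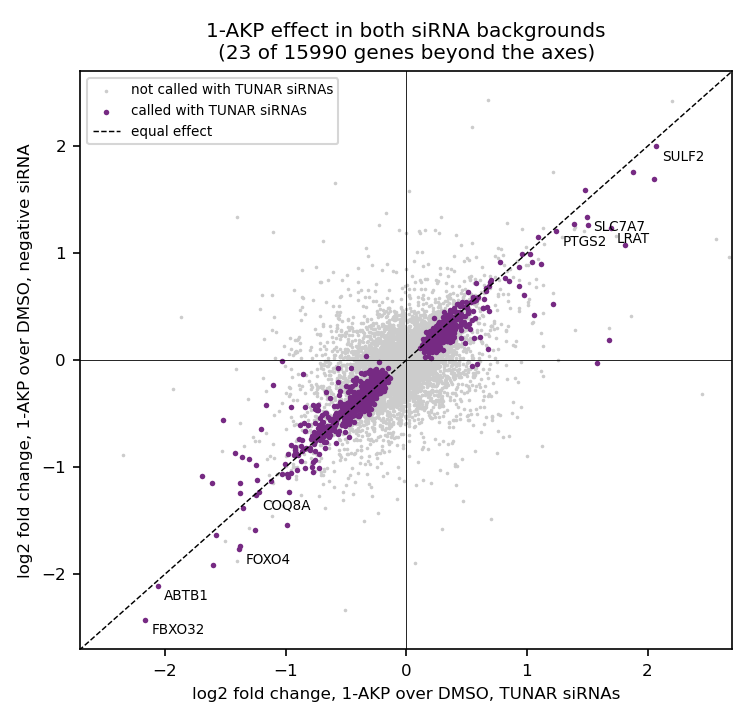
Log2 fold change of 1-AKP over DMSO with TUNAR siRNAs (horizontal axis) against that with negative siRNA (vertical axis), 1 point a gene, with the 1201 genes called with TUNAR siRNAs in purple and the line of equal effect dashed. Most purple points lie along the line, with PTGS2 and COQ8A on it within their errors. Axes hold all but 23 genes.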

How the data were processed

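RNA sequencing of 12 libraries was deposited as gene tables with expected counts and FPKM values. The authors used BWA, Bowtie and RSEM with the GRCh37 (hg19) build, per the submitters' processing notes, and the roles and versions of these tools, strand and annotation are not given in the sources used here. Deposited expected counts, which RSEM need not give as whole numbers, were rounded before testing. The deposited FPKM values, scaled for length and depth by the authors, served only for alternatives. Gene IDs were matched to symbols for 21386 of 21508 genes, and the 122 unmatched stayed in the fit.

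Counts were filtered (minimum count 10, minimum total 15), scaled by TMM and fitted over all 4 groups of 3 libraries with edgeR's quasi-likelihood test (edgeR 4.0.16, R 4.3.3), with Benjamini-Hochberg adjustment over 15990 genes at 0.05. The difference between the 1-AKP effects was a contrast of the same fit. Each library held 15653786 to 15986834 expected counts, which limits the precision of genes below about 1 CPM. Scripts were tested on simulated data. Named genes were TUNAR and 18 fixed genes, the 15 largest called folds each way among genes of at least 1 log2 CPM whose groups did not overlap, and, of each list, the called members of lowest p, at most 4; other genes, further list members included, were chosen after their values were seen. Members and lists were chosen with earlier results of these data known. Alternatives were other scalings (DESeq2 size factors, library size alone), filters (none; 50 counts in 3 libraries), DESeq2 1.42.0, limma 3.58.1 on log2(FPKM + 1) and log2(FPKM + 0.1), a passage covariate, a replicate block, subsets of libraries and leaving out libraries. Promoters are from RefSeq (GRCh38.p14). Python 3.11.15 and matplotlib 3.10.9 were used. Some called genes are not reported here.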

Additional observations from a re-analysis of the deposited data

How the results depend on the processing

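The number of genes called with TUNAR siRNAs was 1201, and it stayed within 1041 to 1628 with other scalings, filters, DESeq2, limma and a passage covariate. It was 446 with the 6 libraries alone, 67 in passage 74 and 24 to 2769 when replicates or single libraries were left out. With negative siRNA it was 1168, with 51 in passage 74 and 29 to 2559 on leaving libraries out. In none of these fits did a called gene change sign; the cause of the changed counts was not tested. The replicate numbers did not pair the samples by the rule set, which asked for more than 0.1 in all 3. Deviations of same-numbered libraries correlated at 0.407, 0.0634 and 0.159, and replicate 2 correlated more with replicate 3 (0.181). Replicate 1 did go with replicate 1 (0.407, and 0.427 with negative siRNA). With TUNAR siRNAs it correlated at -0.185 to -0.28 with replicates 2 and 3. The main fit has no block, so this shared difference of replicate 1 is part of its spread. The coefficient of variation fitted over all genes was 8.74% without a replicate block and 2.86% with it. Genes not called in the main fit were called with it, such as IAPP, NQO1, CCNG2, G6PC2, MAFA, CTNNB1 and PDX1. Their adjusted p by edgeR's quasi-likelihood test was at most 0.00145. AXIN2, GSK3B and INS were still not called. With the number as a replicate block 4335 genes were called with TUNAR siRNAs and 4285 with negative siRNA, 4339 with the 6 libraries alone, and 3978 and 3824 with the block and without replicate 1, an alternative added after seeing the data. The difference between the effects then had 4 calls, against 0 in every other fit run: SLX1B-SULT1A4, TGIF2-RAB5IF and C4A were higher (adjusted p = 6.17e-11, 0.000506 and 0.0449) and CORO7-PAM16 lower (adjusted p = 1.11e-09), named after their values were seen; the first 2 did not pass the filter on low counts with all replicates, and the other 2 had an unadjusted p of 0.0769 (C4A) and 0.155 (CORO7-PAM16).

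TUNAR passed the threshold at 0.70 with the replicate block (adjusted p = 0.0274) and with it in the 6 libraries (0.70), at 0.65 without replicate 1 (adjusted p = 0.00125) and at 0.65 with the block as well. It ran from 0.435 to 0.914 on leaving libraries out.

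Genes that were not called changed sign in some fits. With library size alone NKD1 stood at -0.00722 and ZNRF3 at -0.0147. With limma on log2(FPKM + 1) and log2(FPKM + 0.1) NKD1 stood at -0.000543 and -0.00252, ZNRF3 at -0.0121 and -0.0145 and INS at -0.00134 in both. ZNRF3 was at -0.00422 with the stricter filter and at -0.0269 in passage 74. With the block and without replicate 1, TCF7 was at 0.0964, SP5 at 0.113 and GYS1 at 0.0622. On leaving libraries out the values of these genes ran from -0.264 to 0.0931 for TCF7, -0.112 to 0.145 for NKD1, -0.378 to 0.327 for NOTUM, -0.0456 to 0.0695 for ZNRF3, -0.265 to 0.112 for SP5, -0.0658 to 0.062 for GYS1, -0.0858 to 0.152 for INS and -0.0944 to 0.0103 for GSK3B. HKDC1 and VCAN rest on few counts.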
